A study of Homo sapiens with 208 samples.

Results

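The genes described here are 10 members of the insulin and insulin-like growth factor (IGF) pathway. They are the receptor genes INSR, IGF1R and IGF2R, the adaptor genes IRS1 and IRS2, the forkhead transcription factor genes FOXO1, FOXO3 and FOXO4, and the genes of the secreted IGF binding proteins IGFBP3 and IGFBP6. They were chosen by name, as the genes whose RefSeq accession is carried by a probe of the array. All 10 had a probe that could be tested, among 13261 genes tested and 16961 genes with a named probe. They were followed because relief of phosphoinositide 3-kinase (PI3K) feedback under gefitinib was the question put to them.

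PC9 cells are a lung adenocarcinoma line whose EGF receptor carries an activating deletion, so that the EGF receptor inhibitor gefitinib blocks its growth. PC9M2 cells (PC9GRM2 in the sample labels) are a resistant line derived from PC9 cells by prolonged culture in gefitinib, and are 1 line of several made that way. Cells of both lines were starved for 48 h and then left without addition, treated with 0.5 μM gefitinib, treated with 100 ng/ml EGF, or treated with both. The series holds 26 hours per course, between 0 and 24 h, and 1 one-colour Agilent array for each line, treatment and hour. Gefitinib was added before the 0 h sample, so 0 h is not a drug-free point in the treated courses. Both lines and all 8 courses share the starvation, and no course was run a second time. The 26 time points of a course stand in for replicates below. They are successive samples, the gefitinib effect at neighbouring hours was correlated (up to 0.76 for INSR in PC9 cells), and the sources used here do not say that they came from separate cultures. Adjusted p-values therefore measure only the spread between time points.

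Insulin and the IGFs bind receptor tyrosine kinases that phosphorylate IRS adaptors, which recruit PI3K and activate AKT. AKT phosphorylates FOXO factors and keeps them out of the nucleus. When AKT activity falls, FOXO factors enter the nucleus and can induce genes of receptors and adaptors upstream of PI3K, a feedback known from several tumour types under PI3K pathway inhibition. IGF binding proteins hold IGFs in the extracellular space.

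The 250 bases before the annotated start of each gene (RefSeq, GRCh38.p14) were searched on both strands for the forkhead motif TGTTTAC (reverse complement GTAAACA) and for the core of the insulin response element, TGTTTTG (reverse complement CAAAACA). The first is held by 2.98% and the second by 4.3% of the 35116 windows of that length. Among the 13 windows of the 10 genes, IGFBP6 held the forkhead motif on the reverse strand, 186 bases before its start, and IRS2 held the insulin response core on the forward strand, 40 bases before its start. No window held both. A match is a description and not a binding site, and the other windows lack only these letters. Shown are the 2 windows with a match, in capitals, and those of INSR and IRS1, whose response to gefitinib differed between the lines. IGFBP6 lies on the plus strand at chr12:53097417-53097666. IRS2 lies on the minus strand at chr13:109786584-109786833, INSR on the minus strand at chr19:7294415-7294664 and IRS1 on the minus strand at chr2:226799821-226800070.
IGFBP6: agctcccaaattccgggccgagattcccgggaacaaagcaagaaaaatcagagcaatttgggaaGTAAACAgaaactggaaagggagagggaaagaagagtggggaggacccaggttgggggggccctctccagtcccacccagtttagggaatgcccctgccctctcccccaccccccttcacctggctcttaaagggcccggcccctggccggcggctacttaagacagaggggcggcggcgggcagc
IRS2: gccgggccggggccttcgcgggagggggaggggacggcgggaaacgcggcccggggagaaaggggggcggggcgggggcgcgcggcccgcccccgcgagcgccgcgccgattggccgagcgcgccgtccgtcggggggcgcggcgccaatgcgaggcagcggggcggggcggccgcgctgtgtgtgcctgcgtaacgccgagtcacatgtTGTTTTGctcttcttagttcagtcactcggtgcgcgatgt
INSR: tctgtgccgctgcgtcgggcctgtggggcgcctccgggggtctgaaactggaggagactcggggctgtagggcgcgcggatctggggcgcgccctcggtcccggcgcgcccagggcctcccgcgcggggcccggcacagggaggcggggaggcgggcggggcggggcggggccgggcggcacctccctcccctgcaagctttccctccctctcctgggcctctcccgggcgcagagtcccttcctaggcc
IRS1: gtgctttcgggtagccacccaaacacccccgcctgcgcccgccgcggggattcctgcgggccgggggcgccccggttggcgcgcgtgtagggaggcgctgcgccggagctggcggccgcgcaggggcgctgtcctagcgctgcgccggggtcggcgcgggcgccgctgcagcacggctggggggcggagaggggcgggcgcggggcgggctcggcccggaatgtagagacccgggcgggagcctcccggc

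The arrays held 22655 to 33758 probes well above background in PC9 cells and 24835 to 31362 in PC9M2 cells. Saturation differed between the lines, with 166 to 1423 saturated probes per array in PC9 cells (median 619) and 0 in PC9M2 cells. The probes of the genes followed here were not saturated on any array. The part of saturation in the line differences was not tested. DUSP6, a phosphatase gene driven by the ERK pathway, differed under gefitinib by -6.81 on the log2 scale in PC9 cells and by -2.16 in PC9M2 cells, and was lower at all 26 hours of each line. All 6 epithelial markers were well above background on every array, and the 4 fibroblast markers with a probe on 1 to 31. Of the immune and endothelial markers, PTPRC, the pan-leukocyte marker, was well above background on 1 array, whereas CD14, CD79A and VWF were on every array. Of all arrays, 2 had no array of their own course correlated with them at 0.97 or more, the untreated PC9M2 array at 11 h (highest correlation 0.952) and the PC9 gefitinib array at 16 h. In PC9M2 cells the 12 to 15 h arrays also stood apart for several of the genes, as given with FOXO1 below. A slide carried the 4 arrays of a line and hour, one for each treatment, which puts every treatment comparison within slides. The lines shared no slide and no scan day, so that line and scan period cannot be told apart, and hours of a course scanned on 1 day lie next to each other, so that time and scan day cannot be told apart within a course.

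Under gefitinib, most of the 10 genes rose in both lines. In PC9 cells 7 rose, against 34.8% of all genes tested, and 1 fell, against 37.4%. In PC9M2 cells 8 rose, against 32.5%, and none fell, against 34%. The median change of the 10 genes was 0.78 in PC9 and 0.70 in PC9M2 cells on the log2 scale, beside -0.026 and -0.0071 over all genes. All changes below are gefitinib minus untreated at the same time point, as mean log2 difference ± SE over 26 time points, with limma p-values adjusted by Benjamini-Hochberg over all genes tested. Levels are log2 quantile-normalised intensities, each compared with the same probe only.

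**Figure D1:**
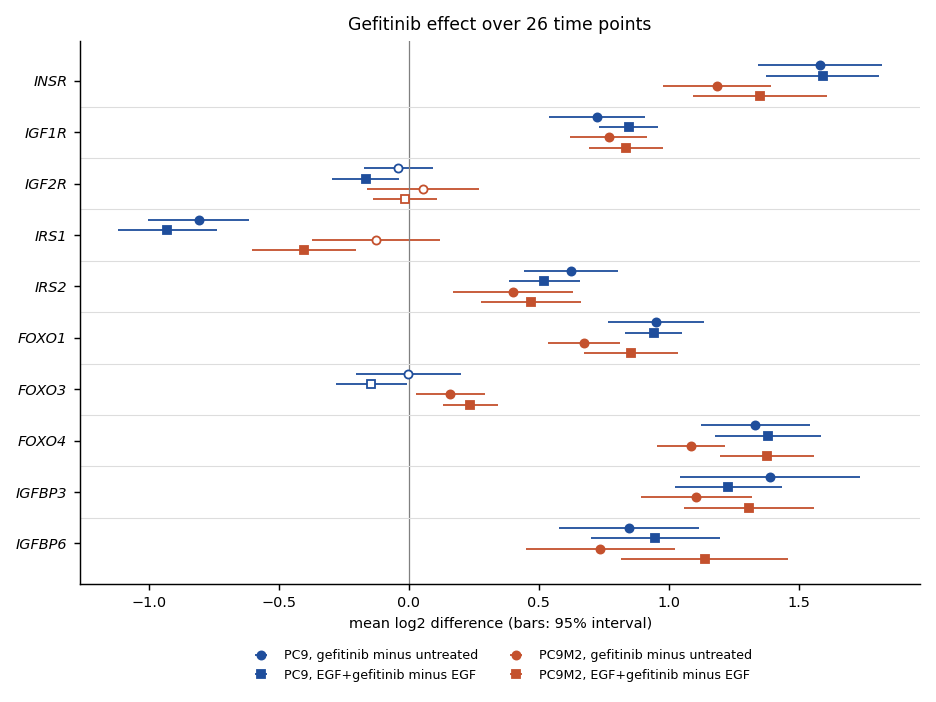
Gefitinib minus untreated (log2 difference, horizontal axis) for each of the 10 genes in PC9 and PC9M2 cells, without and with EGF. Points are means over 26 time points and bars their 95% intervals, and open symbols mark changes that did not pass the threshold. INSR, FOXO4 and IGFBP3 lie farthest to the right in both lines, IRS1 lies left of 0 in PC9 cells, and IGF2R and FOXO3 lie near 0.

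Of the receptors, INSR, the insulin receptor, changed most. Its untreated log2 intensity in PC9 cells ran from 6.15 through a median of 7.12 to 8.41, and under gefitinib from 7.64 through 8.73 to 10.10. In PC9M2 cells it ran from 6.61 through 7.41 to 8.06 untreated and from 7.37 through 8.66 to 9.46 with the drug. The ranges overlapped in both lines, but 19 of 26 gefitinib arrays of PC9 and 21 of 26 of PC9M2 lay above the highest untreated array. INSR rose by 1.58 ± 0.12 in PC9 cells (2.99-fold, adjusted p = 5.12e-12) and by 1.18 ± 0.11 in PC9M2 cells (2.27-fold, adjusted p = 1.09e-10), and was higher at 26 of 26 time points in each. With normexp background correction in place of the scanner's own, these values were 0.87 and 0.68, both past the threshold.

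IGF1R, the receptor for IGF1 and IGF2 that carries their mitogenic signal, rose in both lines. In PC9 cells its log2 intensity ran from 10.80 through 11.44 to 12.15 untreated and from 11.27 through 12.10 to 13.52 under gefitinib. In PC9M2 cells it ran from 11.53 through 11.99 to 12.59 and from 11.89 through 12.77 to 13.17. The upper ends separated more than the lower ones, with 12 and 19 gefitinib arrays above the highest untreated array of PC9 and PC9M2 cells. The rise was 0.72 ± 0.09 in PC9 cells (1.65-fold, adjusted p = 9.62e-08, higher at 24 of 26) and 0.77 ± 0.07 in PC9M2 cells (1.7-fold, adjusted p = 6.29e-10, higher at 25 of 26). A second IGF1R probe rose too, by 0.38 in PC9 and 0.54 in PC9M2 cells.

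IGF2R, which binds IGF2 and carries it to lysosomes and has no kinase, did not pass the test in either line. Its log2 intensity had a median of 9.72 untreated and 9.69 under gefitinib in PC9 cells, and of 9.64 and 9.72 in PC9M2 cells, with ranges that lay over each other. The differences were -0.04 ± 0.07 (adjusted p = 0.605) and 0.06 ± 0.11 (adjusted p = 0.675), with 95% intervals of -0.17 to 0.09 and -0.16 to 0.27. Both IGF2R probes gave no call in these comparisons.

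The adaptors moved apart. IRS1, the docking protein that links both receptors to PI3K, was the only one of the 10 genes that fell under gefitinib alone, and it fell in PC9 cells. Its untreated log2 intensity in PC9 cells ran from 8.65 through 9.46 to 10.04 and under gefitinib from 7.90 through 8.65 to 9.14, with 12 of 26 gefitinib arrays below the lowest untreated array. IRS1 fell by 0.81 ± 0.10 in PC9 cells (1.75-fold lower, adjusted p = 3.44e-08), and was lower at 24 of 26 time points. With normexp the value was -0.53, still past the threshold. In PC9M2 cells the medians were nearly equal, 9.69 untreated and 9.70 with the drug, over ranges of 9.18 to 12.26 and 8.97 to 10.76. The difference was -0.13 ± 0.13 (adjusted p = 0.388, 95% interval -0.37 to 0.12), and 13 of 26 time points were higher. The untreated array at 11 h holds the 12.26, and without that hour the difference was -0.04 (adjusted p = 0.76).

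IRS2, the second docking protein and a known FOXO target, rose where IRS1 did not. In PC9 cells its log2 intensity ran from 7.75 through 8.59 to 9.55 untreated and from 8.34 through 9.05 to 10.07 under gefitinib, and in PC9M2 cells from 7.45 through 9.04 to 9.80 and from 7.30 through 9.55 to 10.21. These ranges overlapped widely, with 10 and 7 gefitinib arrays above the highest untreated one. The rise was 0.62 ± 0.09 in PC9 cells (1.54-fold, adjusted p = 9.02e-07, higher at 23 of 26) and 0.40 ± 0.12 in PC9M2 cells (1.32-fold, adjusted p = 0.00393, higher at 23 of 26). All 3 IRS2 probes gave a rise in both lines, from 0.27 to 0.70. The PC9M2 call was lost with the courses unpaired (adjusted p = 0.0543), with time points 3 h apart (adjusted p = 0.177) and over the last 13 time points (adjusted p = 0.0524).

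Of the forkhead factors, which AKT inactivates, FOXO1 and FOXO4 rose in both lines. FOXO1 ran from 11.29 through 12.00 to 12.39 in untreated PC9 cells and from 11.93 through 12.96 to 13.61 under gefitinib, on the log2 intensity scale. In PC9M2 cells it ran from 10.47 through 11.80 to 12.40 and from 10.98 through 12.53 to 13.03. In PC9 cells 24 of 26 and in PC9M2 cells 16 of 26 gefitinib arrays lay above every untreated array of the line, and the test of the difference in change between the lines did not pass (-0.28 ± 0.12, adjusted p = 0.0825). FOXO1 rose by 0.95 ± 0.09 (1.93-fold, adjusted p = 7.45e-10) in PC9 and by 0.67 ± 0.07 (1.59-fold, adjusted p = 2.81e-09) in PC9M2 cells, and was higher at 26 of 26 time points in each. The second FOXO1 probe gave 0.59 and 0.50.

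In PC9M2 cells FOXO1 was low at 12 to 15 h under all 4 treatments. The 4 untreated arrays of these hours lay between 10.47 and 11.12, below the other 22, the lowest of which was at 11.34. IGF2R, IRS2 and FOXO3 were also low at these hours in the 4 PC9M2 courses, by 1.27 to 1.66 (IGF2R), 0.82 to 1.45 (IRS2) and 0.31 to 0.57 (FOXO3) on average. The same hours in PC9 cells differed from the rest by -0.04 to -0.23 for IGF2R, 0.01 to 0.39 for IRS2 and 0.22 to 0.63 for FOXO1, while FOXO3 was low there too, by 0.30 to 0.61. These slides were scanned on 2 days that also held the 10 and 11 h slides, and the part of the scan was not tested. Without 12 to 15 h, FOXO1 rose under gefitinib by 0.68 and IRS2 by 0.50 in PC9M2 cells. All values for these hours are of the probe used for each gene, and other probes were not read there.

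The rise of FOXO4 came next in size after those of INSR and IGFBP3 in both lines. It ran from 6.18 through 7.03 to 7.93 in untreated PC9 cells and from 7.36 through 8.40 to 9.23 under gefitinib, and from 7.04 through 7.40 to 8.22 and 7.63 through 8.43 to 9.27 in PC9M2 cells. In PC9 cells 20 of 26 and in PC9M2 cells 21 of 26 gefitinib arrays lay above the highest untreated one. FOXO4 rose by 1.33 ± 0.11 in PC9 (2.52-fold, adjusted p = 1.14e-11) and by 1.08 ± 0.07 in PC9M2 cells (2.12-fold, adjusted p = 1.07e-13), and every hour of both lines was higher. Its spot was well above background on all arrays but 2. The values fell to 0.57 and 0.50 with normexp, and the second FOXO4 probe gave 0.77 and 0.61, all past the threshold.

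FOXO3 hardly moved on average over the course. Its median log2 intensity was 10.82 untreated and 10.84 under gefitinib in PC9 cells, and the difference was -0.00 ± 0.10 (adjusted p = 0.991, 95% interval -0.20 to 0.20). That mean joined an early negative phase with later differences of both signs. In PC9 cells the difference averaged -0.57 ± 0.09 (SD) at 0 to 3 h and 0.18 between the outer windows. The hours between ran from -0.85 at 15 h to 1.27 at 16 h, where the gefitinib array stood apart from its course. It averaged -0.02 ± 0.36 (SD) at 20 to 24 h. With EGF, the differences at 0 to 3 h in PC9 cells ran from -0.58 to -0.22. Between the outer windows most differences with EGF were also below 0, from -0.47 at 10 h to 1.34 at 16 h. Differences within these windows were not tested. In PC9M2 cells the medians were 11.27 and 11.35 and the difference 0.16 ± 0.07 (adjusted p = 0.0411, higher at 19 of 26). That call was lost in 11 of 22 alternatives, among them leaving out 11 h (adjusted p = 0.0684) or 16 h (adjusted p = 0.0582).

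Both binding protein genes rose. IGFBP3, the main carrier of IGFs in serum, ran from 8.61 through 9.79 to 11.34 in untreated PC9 cells and from 10.15 through 11.27 to 12.31 under gefitinib, on the log2 intensity scale. In PC9M2 cells it ran from 9.09 through 10.06 to 10.68 and from 9.93 through 11.17 to 12.27, with 22 of 26 gefitinib arrays above the highest untreated array, against 12 of 26 in PC9 cells. IGFBP3 rose by 1.39 ± 0.18 in PC9 (2.62-fold, adjusted p = 6.51e-08, higher at 24 of 26) and by 1.11 ± 0.11 in PC9M2 cells (2.15-fold, adjusted p = 6.9e-10, higher at 26 of 26). The second probe gave 1.39 and 1.06. In PC9 cells the untreated course was highest at 0 h (11.34), where the difference was -0.12, and lowest at 16 h (8.61). The gefitinib course there was lowest at 3 h and highest at 20 h. Part of the IGFBP3 difference in PC9 cells thus lay in the fall of the untreated course.

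IGFBP6, which binds IGF2 in preference to IGF1, ran from 8.59 through 9.61 to 9.95 in untreated PC9 cells and from 9.74 through 10.15 to 11.00 with gefitinib. In PC9M2 cells it ran from 10.19 through 11.69 to 12.18 and from 11.21 through 12.10 to 12.82. Here the highest treated arrays were late ones in PC9 cells, and 21 of 26 lay above every untreated array, against 11 of 26 in PC9M2 cells. IGFBP6 rose by 0.85 ± 0.14 in PC9 (1.8-fold, adjusted p = 3.36e-06, higher at 26 of 26) and by 0.74 ± 0.15 in PC9M2 cells (1.67-fold, adjusted p = 6.73e-05, higher at 21 of 26). Over the first 13 time points the values were 0.34 (adjusted p = 0.00489) and 0.32 (adjusted p = 0.179), and over the last 13 they were 1.35 and 1.15.

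**Figure D2:**
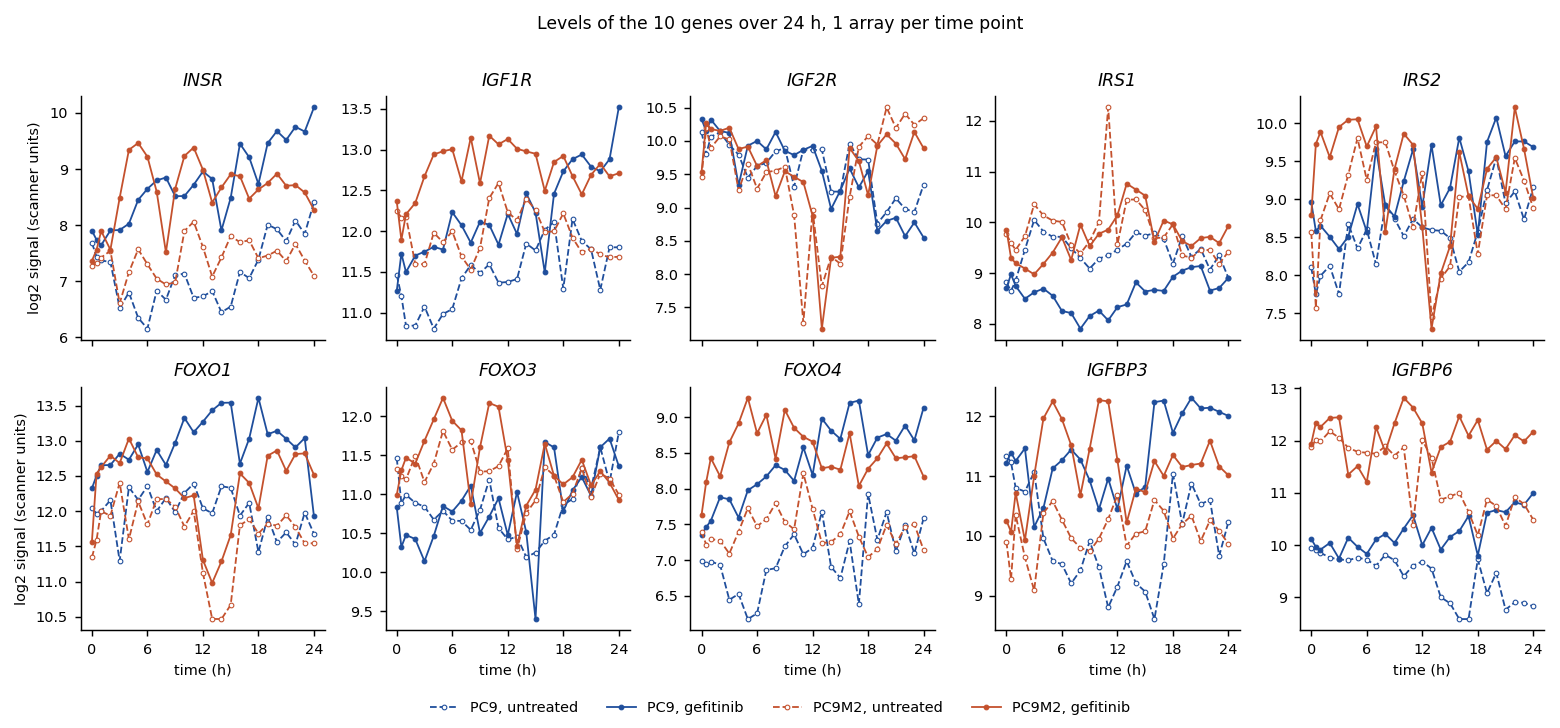
Log2 quantile-normalised intensity (vertical axis) of each of the 10 genes against time in hours, 1 point per array, for the untreated and the gefitinib course of PC9 and PC9M2 cells. The gefitinib courses of INSR, FOXO1, FOXO4 and IGFBP3 run above the untreated ones after the first hours, and the PC9M2 courses of IGFBP6 run above those of PC9 throughout.

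The courses parted at different hours. Time points were read in 3 windows, 0 to 3 h (n = 5), the 16 time points between, and 20 to 24 h (n = 5), as mean log2 difference between gefitinib and untreated cells. INSR went from 0.55 ± 0.49 (SD) early through 1.85 to 1.75 ± 0.07 late in PC9 cells and from 0.54 ± 0.77 through 1.37 to 1.23 ± 0.13 in PC9M2 cells. Its difference was 0.22 at 0 h and 1.39 at 3 h in PC9 cells, and 0.10 and 1.88 in PC9M2 cells, with the largest values at 6 h (2.49) and 4 h (2.18). FOXO4 was already apart early, at 0.76 ± 0.42 and 0.94 ± 0.48, and stood at 1.43 ± 0.20 and 1.06 ± 0.10 late.

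IGFBP6 was the late responder, at 0.12 ± 0.11 early and 1.80 ± 0.36 late in PC9 cells, and 0.26 ± 0.12 and 1.36 ± 0.22 in PC9M2 cells. Part of that gap lay in the untreated courses, which ended lower than they began. From 0 to 24 h the untreated IGFBP6 log2 intensity went from 9.95 to 8.83 in PC9 and from 11.87 to 10.48 in PC9M2 cells, and the gefitinib one from 10.12 to 11.00 and from 11.94 to 12.17. IGFBP3 averaged 0.74 ± 0.69 in the early window in PC9M2 cells against 0.06 ± 0.63 in PC9 cells. The spread within the window covers that gap, and the PC9 mean includes -0.92 at 3 h. With EGF, the IGFBP3 differences at 0 to 3 h ran from 0.22 to 0.57 in PC9 and from -0.32 to 1.59 in PC9M2 cells. IGF1R went from 0.50 ± 0.41 to 1.26 ± 0.31 in PC9 cells. IRS2 had its highest PC9M2 difference at 0.5 h (2.15), where the difference with EGF was -0.56. Its early and late means without EGF in PC9M2 cells were 1.02 ± 0.75 and 0.39 ± 0.22.

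IRS1 followed a course of its own. In PC9 cells the difference reached -1.42 at 3 h, averaged -1.07 between the outer windows and returned to -0.32 ± 0.24 at 20 to 24 h, with 0.01 at 24 h. PC9M2 cells reached a like low at 3 h, -1.38, but were at -0.30 by 6 h and at 0.33 ± 0.12 in the late window. Over the first 13 time points IRS1 fell by 0.53 in PC9M2 cells (adjusted p = 0.0347) and over the last 13 it rose by 0.27 (adjusted p = 2.19e-04). The lowest PC9M2 value, -2.41, was at 11 h and rests on the untreated array that stood apart. IGF2R had its highest PC9M2 difference, 2.11, at the same hour.

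**Figure D3:**
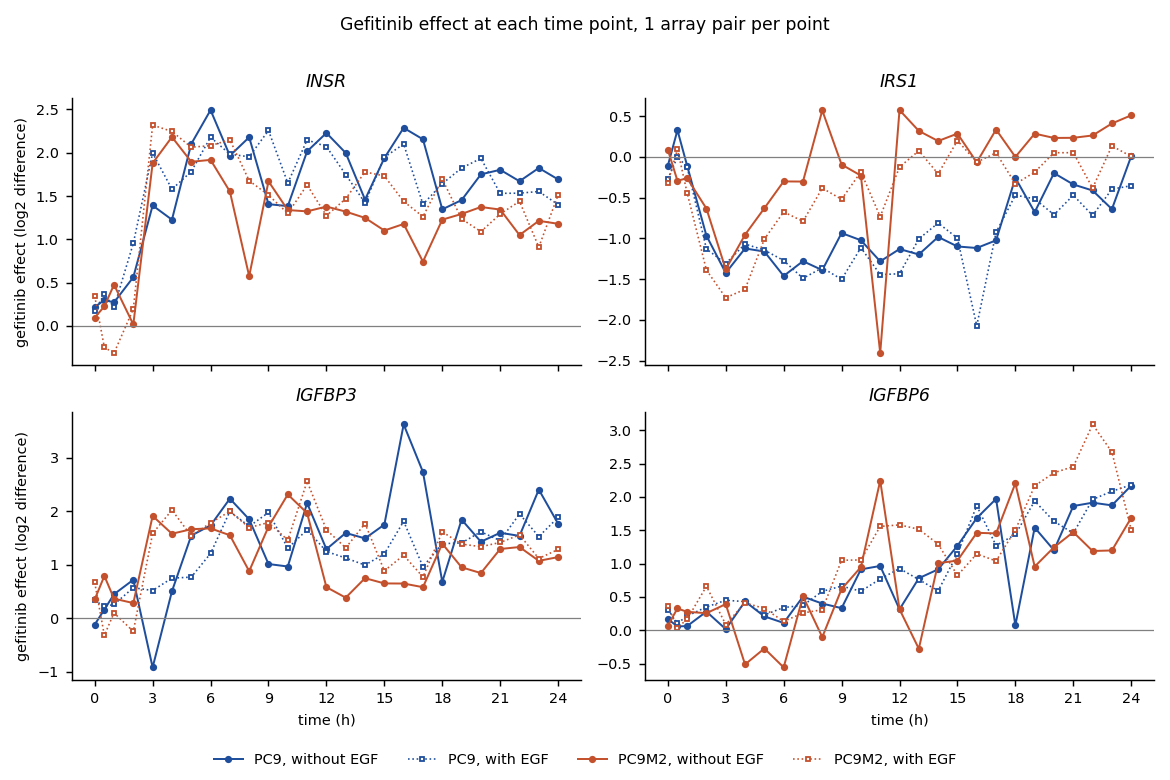
Gefitinib minus untreated (log2 difference, vertical axis) against time in hours for INSR, IRS1, IGFBP3 and IGFBP6 in PC9 and PC9M2 cells, 1 point per time point, solid without and dotted with EGF. INSR rises within 5 h in both lines, IRS1 drops to about the same low at 3 h and returns sooner in PC9M2 cells, and IGFBP6 climbs late.

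A straight line through the differences tested the drift of the gefitinib effect with time. In PC9 cells 5 genes had a rising effect, against 26.4% of all genes, and 1 a falling one, against 25.8%. The rising slopes were 0.08 ± 0.01 log2 per h for IGFBP6 (adjusted p = 1.31e-07), 0.07 ± 0.02 for IGFBP3, 0.04 ± 0.01 for INSR, 0.03 ± 0.01 for FOXO1 and 0.03 ± 0.01 for FOXO4, and IGF2R sloped by -0.03 ± 0.01 (adjusted p = 0.00094). In PC9M2 cells 2 effects rose with time, against 20.3%, and none fell, against 20.5%. They were those of IGFBP6, at 0.07 ± 0.01 per h (adjusted p = 2.35e-04), and IRS1, at 0.04 ± 0.02 (adjusted p = 0.0245). The difference between the lines in slope was not tested. The slopes of INSR, FOXO1 and FOXO4 in PC9 cells turned over the last 13 time points, to -0.03, -0.03 and -0.01. The FOXO4 slope (adjusted p = 0.0464) also lost its call in 11 of 22 alternatives, among them without 11 h (adjusted p = 0.0504), 13 h (adjusted p = 0.0509), 16 h (adjusted p = 0.0575) or 12 to 15 h (adjusted p = 0.0775). The IRS1 slope in PC9M2 cells lost its call in 5 of 21 alternatives and was -0.04 over the first 13 time points. The IGF2R calls depended on the probe. In PC9M2 cells its slope was -0.03 ± 0.01 on the probe used (adjusted p = 0.105) and -0.04 on the second (adjusted p = 0.000572). In PC9 cells the second probe gave -0.015 (adjusted p = 0.0783).

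Gefitinib was also compared in the presence of EGF, in courses that share no array with those above but lie on the same slides. In PC9 cells 7 genes rose, against 38.9% of all genes, and 2 fell, against 40%, and in PC9M2 cells 8 rose, against 36.5%, and 1 fell, against 38%. INSR rose by 1.59 ± 0.11 and 1.35 ± 0.13, IGF1R by 0.85 ± 0.06 and 0.84 ± 0.07, and FOXO1 by 0.94 ± 0.06 and 0.85 ± 0.09 in PC9 and PC9M2 cells. FOXO4 rose by 1.38 ± 0.10 and 1.38 ± 0.09, IGFBP3 by 1.23 ± 0.10 and 1.31 ± 0.13, IGFBP6 by 0.95 ± 0.13 and 1.14 ± 0.16, and IRS2 by 0.52 ± 0.07 and 0.47 ± 0.10. These 7 genes thus rose in all 4 gefitinib comparisons. How many of all genes rose in all 4 was not counted. IRS1 fell in both lines here, by 0.93 ± 0.10 in PC9 cells (lower at 26 of 26, adjusted p = 1.25e-09) and by 0.40 ± 0.10 in PC9M2 cells (lower at 18 of 26, adjusted p = 8.6e-04). The PC9M2 fall was -0.75 over the first 13 time points and -0.06 (adjusted p = 0.331) over the last 13, and with time points 3 h apart the adjusted p was 0.0831. IGF2R fell by 0.17 ± 0.07 in PC9 cells (adjusted p = 0.023), a call lost with 75th percentile scaling (adjusted p = 0.0614), unpaired courses (adjusted p = 0.294), time points 3 h apart (adjusted p = 0.186) and the scan day as a block (adjusted p = 0.105), and at 0.06 over the first 13 time points. It was at -0.02 ± 0.06 in PC9M2 cells. FOXO3 rose by 0.24 ± 0.05 in PC9M2 cells (adjusted p = 2.81e-04) and was at -0.14 ± 0.07 (adjusted p = 0.0634) in PC9 cells. That FOXO3 value passed as a fall in 7 of 22 alternatives, among them without 16 h (-0.20, adjusted p = 1.01e-04), with the mean of all probes (-0.21, adjusted p = 8.26e-04) and with the second probe (-0.28, adjusted p = 6.89e-06).

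EGF alone moved few of these genes, but it also moved fewer of all genes than gefitinib did. The counts that follow were near the shares over all genes and do not set these genes apart. In PC9 cells 1 rose, against 11.3% of all genes, and none fell, against 14.3%, and in PC9M2 cells none rose, against 4.16%, and 1 fell, against 4.92%. FOXO3 was higher with EGF in PC9 cells by 0.20 ± 0.07 (adjusted p = 0.0372, higher at 20 of 26), and FOXO4 was lower in PC9M2 cells by 0.20 ± 0.06 (adjusted p = 0.0389, lower at 21 of 26). The FOXO3 call was lost without 11 h, without 13 h or without 12 to 15 h (adjusted p = 0.175 in the last case), and the FOXO4 call without 16 h or without 12 to 15 h (adjusted p = 0.112). For the 9 genes with no call, the 95% intervals of the difference lay within -0.37 to 0.42 in PC9 and, for the 9 in PC9M2 cells, within -0.41 to 0.27.

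The levels also moved with time in cells that received nothing but starvation, tested with a spline of 4 degrees of freedom. In PC9 cells 9 of the 10 genes changed, against 66.5% of all genes, and FOXO1 did not pass (adjusted p = 0.0552). The second FOXO1 probe did pass there, with a span of 0.65 (adjusted p = 3.41e-05), and FOXO1 gained the call in 7 of 20 alternatives. The fitted curve spanned 2.24 log2 units for IGFBP3 and 1.85 for INSR, which was lowest at 6 h and highest at 24 h. In PC9M2 cells 6 changed, against 67.5%, with spans of 2.19 for IGF2R, 1.66 for IRS2, 1.42 for IGFBP6 and 1.12 for FOXO1, and of 0.67 for IGF1R and 0.60 for FOXO3. Without 12 to 15 h the FOXO1 span was 0.51 (adjusted p = 0.0882) and that of IGF2R 1.77 (adjusted p = 0.00319). The spans depended on the probe. In untreated PC9M2 cells the second IGF2R probe spanned 0.73 (adjusted p = 0.0369) and the 3 IRS2 probes 0.84 to 1.66. The second IGF1R probe did not pass there (0.86, adjusted p = 0.0979). INSR, IRS1, FOXO4 and IGFBP3 did not pass in PC9M2 cells.

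The lines were compared at each treatment, as PC9M2 minus PC9 at the same time point. Without treatment 6 genes were higher in PC9M2 cells, against 30.3% of all genes, and 1 lower, against 37.8%. Under gefitinib 4 were higher, against 29.9%, and 1 lower, against 34.8%, under EGF 5, against 32.1%, and 2, against 37.7%, and under both agents 6, against 30.6%, and 1, against 37.1%. IGFBP6 was higher in PC9M2 cells at every time point of every treatment. The difference was 1.93 ± 0.09 without treatment (3.8-fold, adjusted p = 6.27e-17), 1.82 ± 0.10 under gefitinib, 1.77 ± 0.11 under EGF and 1.96 ± 0.09 under both agents. The IGFBP6 courses of the lines did not overlap without treatment, under gefitinib or under both agents. How many of all genes had courses that did not overlap was not counted. The IGFBP6 difference remained past the threshold in all 21 alternatives at each treatment.

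IRS1 was higher in PC9M2 cells at each treatment too. The difference was 0.44 ± 0.12 without treatment (adjusted p = 0.00173) and 0.38 ± 0.08 under EGF, and 1.12 ± 0.11 under gefitinib (2.18-fold, higher at 26 of 26) and 0.90 ± 0.11 under both agents. With the scan day as a random block, the values without gefitinib no longer passed (adjusted p = 0.114 untreated and 0.125 under EGF), nor did they over the last 13 time points, whereas those with gefitinib did. IRS1 and IGFBP6 have 1 probe each.

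**Figure D4:**
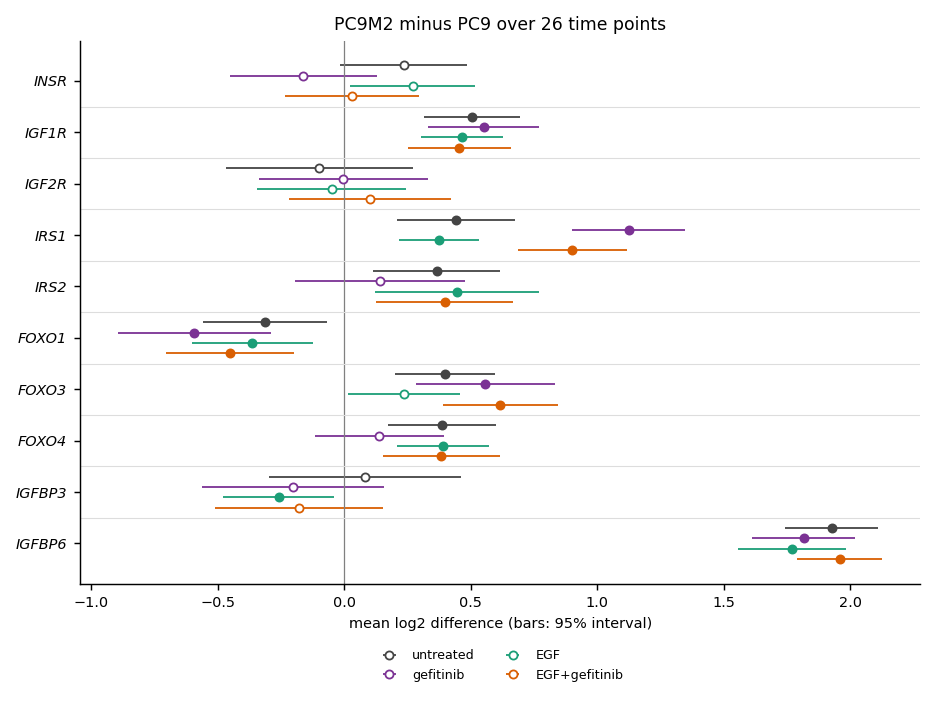
PC9M2 minus PC9 (log2 difference, horizontal axis) for each of the 10 genes at each treatment, as means over 26 time points with 95% intervals, open symbols marking differences that did not pass. IGFBP6 stands near 2 at every treatment, and IRS1 lies farther to the right in the 2 treatments with gefitinib than in the others.

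Most other line differences were smaller or depended on the probe. IGF1R was higher in PC9M2 cells by 0.51 ± 0.10 untreated and by 0.45 to 0.55 over the 4 treatments, but its second probe gave 0.01 untreated (adjusted p = 0.948). FOXO1 was lower, by 0.31 to 0.59 over the treatments, and its second probe gave -0.04 untreated (adjusted p = 0.707). Without 12 to 15 h the FOXO1 difference was -0.10 untreated (adjusted p = 0.353) and -0.18 under EGF (adjusted p = 0.118), and -0.31 (adjusted p = 0.0126) under gefitinib. FOXO4 was higher by 0.38 to 0.39 at 3 treatments and differed by 0.14 ± 0.13 under gefitinib, while its second probe gave -0.15 untreated (adjusted p = 0.499). FOXO3 was higher by 0.40 ± 0.10 untreated, 0.56 ± 0.14 under gefitinib and 0.62 ± 0.12 under both agents, and its second probe gave 0.09 untreated (adjusted p = 0.509). IRS2 was higher by 0.36 ± 0.13 untreated, 0.45 ± 0.17 under EGF and 0.40 ± 0.14 under both agents, and differed by 0.14 ± 0.17 under gefitinib. The 3 IRS2 calls were lost with the scan day as a block (adjusted p = 0.173 to 0.178) and with time points 3 h apart, and over the last 13 time points the values were 0.01 untreated, -0.17 under EGF and -0.12 under both agents. The IRS2 difference under gefitinib was 0.37 without 12 to 15 h (adjusted p = 0.0351) and -0.48 over the last 13 time points (adjusted p = 0.0352). IGFBP3 was lower by 0.26 ± 0.11 under EGF (adjusted p = 0.0415), a call lost in 9 and turned in 2 of 22 alternatives, and its second probe gave 0.07 (adjusted p = 0.538). It did not pass at the other treatments. INSR and IGF2R did not pass at any treatment, but the second IGF2R probe was higher in PC9M2 cells by 0.42 untreated (adjusted p = 6.87e-05).

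The mean level over a course, ordered from high to low, put the 4 gefitinib courses of INSR first, between 8.74 and 8.58, and the 4 courses without gefitinib after a gap of 1.18, between 7.40 and 7.07. Neighbours within each set of 4 differed by at most 0.17, less than the SD over time points of 0.33 to 0.70. The same order, courses with gefitinib before those without, held for IGF1R, IRS2, FOXO1, FOXO4 and IGFBP3, while the order of IGFBP6 followed the line. How many of all genes held the order with gefitinib first was not counted. The gap between the 2 sets was 0.97 for IGFBP3 and 0.79 for FOXO4, beyond the larger SD of the courses on either side. It was within that SD for FOXO1 (0.36), IGF1R (0.22) and IRS2 (0.07).

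The response to gefitinib was then compared between the lines, as the PC9M2 change minus the PC9 change at each hour. Of the 10 genes 1 was higher, against 17.5% of all genes, and 1 lower, against 16.6%. IRS1 was higher in PC9M2 cells by 0.68 ± 0.13 (adjusted p = 2.27e-04, at 23 of 26 time points), and INSR was lower by 0.40 ± 0.11 (adjusted p = 0.00538, at 22 of 26). For the other 8 genes the 95% intervals lay within -0.70 to 0.41. For IRS1 the value was 0.76 without 11 h and 0.54 without 12 to 15 h, both past the threshold, but over the first 13 time points it was 0.39 (adjusted p = 0.266) against 0.97 over the last 13. The INSR difference was -0.39 without 11 h and -0.35 without 12 to 15 h. It no longer passed with unpaired courses (adjusted p = 0.243), with time points 3 h apart (adjusted p = 0.275), with the scan day as a block (adjusted p = 0.144) or over the first 13 time points (adjusted p = 0.562). Normexp gave -0.19 for INSR and 0.43 for IRS1, both past the threshold.

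On each scan day the mean change of INSR, IGF1R, FOXO1, FOXO4 and IGFBP3 under gefitinib was above 0, on 8 of 8 days in PC9 and 9 of 9 in PC9M2 cells. IRS1 was below 0 on 8 of 8 days in PC9 cells and on 4 of 9 in PC9M2 cells.

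The rest of the pathway was read through 4 lists. Of 23 tested genes known as FOXO targets, 16 rose and 3 fell under gefitinib alone in PC9 cells, and 17 rose and 3 fell in PC9M2 cells, with medians of 1.26 and 1.00 beside -0.026 and -0.0071 over all genes. Over all genes tested 34.8% rose and 37.4% fell in PC9 cells and 32.5% rose and 34% fell in PC9M2 cells, which is the background of this and the next 3 lists. TNFSF10, the death ligand TRAIL, rose by 4.35 ± 0.18 in PC9 and 4.57 ± 0.19 in PC9M2 cells, and SELENOP, a selenium carrier, by 4.12 ± 0.28 and 3.51 ± 0.22. Both were well above background on all gefitinib arrays of PC9 cells but on 19 and 22 of 26 untreated ones. GADD45A, a DNA damage and growth arrest gene, went the other way and fell by 1.77 ± 0.13 and 1.12 ± 0.17, KLF2, a Krüppel-like transcription factor gene, fell by 1.50 ± 0.11 in PC9 cells and SOD2, the mitochondrial superoxide dismutase, by 0.63 ± 0.08 in PC9M2 cells.

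Of 10 tested ligands, binding proteins and their processing factors, 3 rose and 5 fell in PC9 cells and 4 rose and 5 fell in PC9M2 cells, with medians of -0.37 and -0.18. The number that rose was near the share over all genes. IGFBP5, another IGF binding protein, rose by 2.65 ± 0.33 and 1.55 ± 0.24, from a probe that cleared background on only 10 and 6 of 26 untreated arrays. IGF2, a ligand of INSR and IGF1R, rose by 0.89 ± 0.14 in PC9 cells and IGFBP1, a FOXO-responsive binding protein, by 0.81 ± 0.15 in PC9M2 cells. PAPPA, the protease that frees IGFs from IGFBP4, fell by 2.49 ± 0.24 and 1.54 ± 0.14, and was well above background on 7 and 13 of 26 gefitinib arrays. IGFBP4 itself fell by 2.30 ± 0.22 in PC9 cells and STC2, an inhibitor of PAPPA, by 1.51 ± 0.21 in PC9M2 cells.

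Of 10 tested adaptors, phosphatases and inhibitors next to the receptors, 4 rose and 5 fell in PC9 cells and 3 rose and 5 fell in PC9M2 cells, with medians of -0.08 and -0.25. The number that rose was again near the share over all genes. SH2B1, an adaptor of the insulin receptor, rose by 1.44 ± 0.16 and 1.29 ± 0.14, and GRB2, which leads to RAS, fell by 1.04 ± 0.11 and 0.62 ± 0.08. PTPRF, a receptor phosphatase, rose by 0.94 ± 0.14 in PC9 cells, and PTPN1, which dephosphorylates the insulin receptor, fell there by 0.68 ± 0.07. GAB1, a docking protein, rose by 0.78 ± 0.14 in PC9M2 cells from a probe that cleared background on 6 of 26 untreated arrays, and PTPN11, the phosphatase SHP2, fell there by 0.81 ± 0.12.

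Of the 24 genes of the PI3K, AKT and mTOR chain, 7 rose, 10 fell and 7 were not called in PC9 cells, and 8, 8 and 8 in PC9M2 cells, about as many as among all genes, with medians of -0.10 and 0.008. AKT1, an AKT kinase gene, fell by 0.72 ± 0.12 and INPPL1, a lipid phosphatase gene, rose by 0.68 ± 0.13 in PC9 cells. In PC9M2 cells TSC1, an mTOR inhibitor, rose by 0.63 ± 0.07 and PIK3CA, a PI3K catalytic subunit, by 0.57 ± 0.09, and TRIB3, a pseudokinase that binds AKT, fell by 0.93 ± 0.10.

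The genes whose log2 intensity followed that of a member most closely over all arrays are given as a description. They were THBS3 for INSR (Pearson r = 0.912), USP9X for IGF1R (0.896), NPLOC4 for IGF2R (0.802), UBP1 for IRS1 (0.887) and UBE2Z for IRS2 (0.812). For the others they were SALL4 for FOXO1 (0.855), USF2 for FOXO3 (0.814), ELF3 for FOXO4 (0.928), TTC31 for IGFBP3 (0.852) and PIGZ for IGFBP6 (0.93). Among the members themselves INSR and FOXO4 (0.887) and INSR and IGFBP3 (0.859) ran most alike, and IRS1 and FOXO1 most opposed (-0.664). The arrays share treatment, line, time and slide, so these values describe all of them at once.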

How the data were processed

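Total RNA of each sample was hybridised to one-colour Agilent arrays. The authors deposited the scanner's output per array, in which background-subtracted processed signal intensity is given per spot (Agilent Feature Extraction 10.5.1.1 in the file headers), and a table of quantile-normalised intensities, which matched the values computed here. Processed intensities were quantile-normalised over all arrays, floored at 1 and taken to log2, with outlier spots removed (0.0793% of values of tested genes, none of the 10 genes). Probes were named through RefSeq accessions, and 24794 of 41000 matched. The probe of largest variance stood for a gene, as in the study's methods, and a gene was tested if well above background on 13 of 26 arrays in at least 1 course. Differences paired by time point were tested with limma 3.58.1 in R 4.3.3, two-sided, with Benjamini-Hochberg adjustment over 13261 genes and a threshold of 0.05. A linear slope and a natural spline (F-test) were fitted over time. The 10 genes, the lists and the tests were chosen with earlier results of these data known, and within a list, genes named are the 2 called with the largest rise and the 2 with the largest fall per line, apart from some not reported here. The code was tested on simulated data. Alternatives covered scaling, background (normexp with offset 50 on median signals, as the files hold no mean signal), probe choice, filters, floor, outliers, pairing, scan day and subsets of time. Subsets without 11, 13, 16 or 12 to 15 h were added after the data were seen. The number of arrays limits the precision.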

Additional observations from a re-analysis of the deposited data

Results flagged for a closer look

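The response to gefitinib differed between PC9M2 and PC9 cells, by the test of the difference itself, for 2 of the 10 genes, beside 17.5% of all genes with a higher and 16.6% with a lower response in PC9M2 cells. For INSR the difference was -0.397 on the log2 scale, with a rise of 1.58 in PC9 and 1.18 in PC9M2 cells. The INSR call was lost with the scan day as a block (adjusted p = 0.144), with unpaired courses (0.243), with time points 3 h apart (0.275) and over the first 13 time points (0.562). For IRS1 it was 0.682, with a fall of 0.81 in PC9 cells and a difference of -0.13 (adjusted p = 0.388) in PC9M2 cells, and the call was lost over the first 13 time points (adjusted p = 0.266). The lines were scanned on separate days, and the part of the scan in these differences cannot be told apart from that of the line.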

How the results depend on the processing

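The gefitinib effects kept their direction and side of the threshold in 839 of 872 recomputed values, with 22 lost, 9 gained and 2 turned, and the number of the 10 genes called never moved by over 1.5 times. Line differences kept theirs in 762 of 872 and turned in 17, and the rest kept theirs in 405 of 436 for EGF, 388 of 436 for slopes, 348 of 396 for change over time and 209 of 218 for the difference of the response. The methods' paired t-test (one-sided between the lines, threshold as there, after Benjamini-Hochberg) called 8 genes in each line under gefitinib alone, 9 in each with EGF, and 6, 4, 5 and 6 between the lines untreated, under gefitinib, EGF and both. The spline could not be run with unpaired courses or a t-test.

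The EGF count in PC9 cells (1) was 2 with 75th percentile scaling, the mean of all probes or the scan day as a block, and 0 without the filter, unpaired, 3 h apart, over the last 13 time points, without 11 h or without 13 h. In PC9M2 cells (1) it was 2 with the probe of highest mean, over the last 13 time points or without 11 h, and 0 with the mean of all probes, without the filter, unpaired, 3 h apart, with scan day, over the first 13 time points, without 16 h or without 12 to 15 h. The line count under EGF (7) was 4 with the mean of all probes, 3 at 3 h apart and over the last 13 time points, and 2 with scan day. Under both agents (7) it was 3 at 3 h apart and 4 over the last 13, and untreated (7) it was 3 at 3 h apart and with scan day and 1 over the last 13. The count for change over time in PC9 (9) was 0 at 3 h apart, 5 over the first 13 and 2 over the last 13 time points, and in PC9M2 (6) 1 at 3 h apart. The count for the difference of the response (2) was 1 unpaired, at 3 h apart and with scan day, 0 over the first 13 and 5 over the last 13, where IRS2 (-0.489), FOXO4 (-0.503) and IGFBP3 (-0.933) passed too. The slope count in PC9 (6) was 1 at 3 h apart and over the last 13, and in PC9M2 (2) 1 unpaired, at 3 h apart, with scan day and over either set of 13. Fewer time points enter the tests at 3 h apart and over 13 points, and otherwise the cause was not tested.

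Values that turned sign between the lines with the probe of highest mean or another probe were IGF2R at 0.418 untreated, 0.572 under gefitinib (0.285 with the mean of all probes) and 0.426 under EGF, IGFBP3 at 0.071 under EGF, FOXO4 at -0.149 untreated and -0.17 under EGF, and IGF1R at -0.051 under EGF. Over the last 13 time points IRS2 turned to -0.477 under gefitinib, -0.169 under EGF and -0.119 under both, and FOXO4 to -0.406 under gefitinib and -0.084 under both. IGF2R under gefitinib with EGF in PC9 cells was 0.062 over the first 13, and IRS1 under gefitinib in PC9M2 cells 0.274 over the last 13. Slopes per h in PC9 cells were -0.03 for INSR, -0.026 for FOXO1 and -0.01 for FOXO4 over the last 13, and 0 for IGF2R and -0.102 for IRS1 over the first 13. In PC9M2 cells the slope was -0.041 for IRS1 over the first 13, and 0.136 and 0.065 for IGFBP3 over the first and last 13. Signal over background limits FOXO4 most, whose probe was not well above background on 2 arrays.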
